A study of Mus musculus with 8 samples.

Results

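Meiotic prophase genes were followed as a module of 38 genes that assemble meiotic chromosomes, make and repair programmed DNA breaks, start meiosis, tether chromosome ends or join germ cells. The members came from a named list of gene symbols that used no measured value, and all 38 were found among the 26586 genes listed. Of these, 34 matched by symbol and 4 by an older symbol: Meiob as 4930528F23Rik, Meioc as Gm1564, Majin as 1700123I01Rik and Terb1 as Ccdc79. The members fell into 9 roles: 7 genes of the synaptonemal complex, 5 of cohesin, 3 of the chromosome axis and its HORMA domain proteins, 4 of break formation, 6 of strand exchange, 6 of crossover formation, 3 of meiotic entry, 3 of telomere attachment and 1 of the intercellular bridge. The 7 members Brca2, Mlh3, Psmc3ip, Smc3, Sun1, Trip13 and Ythdc2 also work in somatic cells and are called broad members, and the other 31 are called germline members.

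In the study, mitochondria from egg precursor cells were injected into oocytes together with the sperm, and the founders so made were bred onward. RNA was sequenced from ovarian primordial follicles at postnatal day 3, all of strain background C57Bl/6 x CBA. The mito-supplemented group held 4 libraries from the third generation after those founders, and the control group held 4 libraries from colony matings without supplementation. Follicles were freed from ovaries by enzyme digestion, and RNA was extracted from the pooled follicles of an ovary and amplified. A further control library was left out by the authors and is absent from the counts. The labels call the libraries of a group biological replicates without saying that they came from separate animals, so p-values measure the spread between these samples. The label codes of control 1 and 2 share a prefix, as do those of control 3 and 4 and those of mito-supplemented 1 to 3, while mito-supplemented 4 has one of its own, and what a prefix marks is not given. All directions rest on the deposited labels. The legend of the heat map in the paper appears to show its called genes higher in control, whereas under the deposited labels most genes called by edgeR's likelihood ratio test were higher with supplementation, and this was not settled.

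In the fetal ovary, oogonia enter meiosis together under retinoic acid and its target Stra8, and their homologous chromosomes pair, recombine and are joined by the synaptonemal complex during prophase of the first division. Around birth the oocytes leave pachytene, dismantle the synaptonemal complex and rest in dictyate, an extended diplotene arrest that can last for most of reproductive life. Cohesin loaded before birth and the crossovers made then hold the chromosome pairs together until ovulation, so the proteins of some of these genes are needed long after prophase while others have finished their work. The comparison within each group therefore asked which members still had transcripts at postnatal day 3, and the comparison between groups asked whether supplementation of the founders went with a different level.

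Total counts per library were 17658559, 13917412, 18219362 and 10370045 in control libraries 1 to 4, and 19760763, 13370911, 16116434 and 13276462 in mito-supplemented libraries 1 to 4. Genes for ribosomal RNA took 23.0%, 41.3%, 40.6% and 75.3% of the control counts and 20.2%, 45.6%, 36.4% and 44.0% of the mito-supplemented counts, which left control 4 with 2559876 other counts. Levels are given in CPM, the count of a gene normalised to the library total, after scaling between libraries by the trimmed mean of M values (TMM). On this scale 3 counts, the limit that a count of 0 allows, came to between 0.123 CPM in control 1 and 0.592 CPM in control 4. Such floors and intervals cover counting error only.

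The label of primordial follicles was checked with markers of oocytes and of pregranulosa cells, the somatic cells that enclose them. Ddx4, a germ cell RNA helicase, measured 71.3, 8.48, 12.01 and 11.4 CPM in control and 24.1, 9.83, 20.01 and 7.86 CPM in mito-supplemented libraries. Dppa3, a maternal chromatin factor, had 414, 15.8, 26.2 and 98.5 CPM in control against 49.7, 37.1, 100.4 and 12.2 CPM. Both markers were thus found in every library, at levels that varied widely inside each group. Figla, a transcription factor needed for primordial follicles to form, had 96.0, 2.54, 3.89 and 2.37 CPM in control and 8.98, 6.51, 11.7 and 2.64 CPM in mito-supplemented follicles. Nobox, which sustains early follicle growth, stood at 257, 5.63, 9.61 and 57.2 CPM against 35.5, 17.3, 56.5 and 8.90 CPM. For Gdf9, a growth factor of the oocyte, the values were 60.02, 2.93, 2.80 and 13.4 CPM against 15.7, 4.16, 25.1 and 7.58 CPM. Control 1 led each of these 5 genes and also Zp3, a protein of the egg coat, at 99.8, 7.85, 0.572 and 36.5 CPM in control and 1.16, 4.36, 35.4 and 5.21 CPM in mito-supplemented libraries. Of 20 oocyte markers, 11 reached 1 CPM in every library, while Oosp1 had no count in 6 libraries and Bmp15 none in 3. The pregranulosa marker Foxl2, a transcription factor of the female somatic lineage, was counted in every library at 7.62 to 61.4 CPM.

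Several libraries stood apart. Control 1 held 4549 CPM of summed oocyte markers against 233, 225 and 877 CPM in the other control libraries and 370.1, 272, 1019.7 and 151 CPM in the mito-supplemented libraries. Mito-supplemented 4 had the lowest such sum. Markers of red blood cells summed to 3906 CPM in control 2, 2495 CPM in control 3 and 4877 CPM in mito-supplemented 1, against 23.8 to 79.7 CPM in the other 5 libraries. No library was a copy of another: the closest pair, control 2 and control 3, differed far beyond counting error (chi-square per degree of freedom 59.997).

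Many but not most of the meiotic prophase genes were expressed in every library at postnatal day 3. Taking 1 CPM as the mark of expression, 17 of the 38 members (44.7%) were expressed in every library, compared with 35.3% of all genes listed (9377 genes). These 17 were Smc3, Sycp3, Smc1b, Tex15, Syce2, Brca2, Sycp1, Psmc3ip, Mlh3, Stag3, Sun1, Ythdc2, Tex14, Trip13, Hormad1, Prdm9 and Terb1. They included all 7 broad members and 10 of the 31 germline members (32.3%), a germline share near the 35.3% of all genes listed. Every role was represented among them. Another 4 members, Msh4, Msh5, Syce1 and Sycp2, missed the mark only in mito-supplemented 4. Hfm1 and Tex11 reached 1 CPM in 6 libraries, Rec8 in 5, Meioc and Rnf212 in 4, and Dmc1, Meiob, Rad21l and Tex12 in 3. At the low end, Mei1 and Spata22 reached it in 2 libraries, and Hormad2, Majin, Mei4, Stra8 and Syce3 in 1. Spo11 reached it in none of the 8 libraries.

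By group, 21 members were expressed in all 4 control libraries and 17 in all 4 mito-supplemented libraries. The difference came from mito-supplemented 4, without which 21 members were expressed in all remaining libraries. Members at or above 1 CPM numbered 33, 25, 25 and 27 in control libraries 1 to 4 and 27, 24, 28 and 21 in mito-supplemented libraries 1 to 4. The most members with no count at all, 13, were found in mito-supplemented 4, followed by 8 in control 4, the library with the fewest counts. The part of depth in these numbers was not tested. In bulk follicles, fewer oocytes and less RNA per oocyte cannot be told apart.

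**Figure D1:**
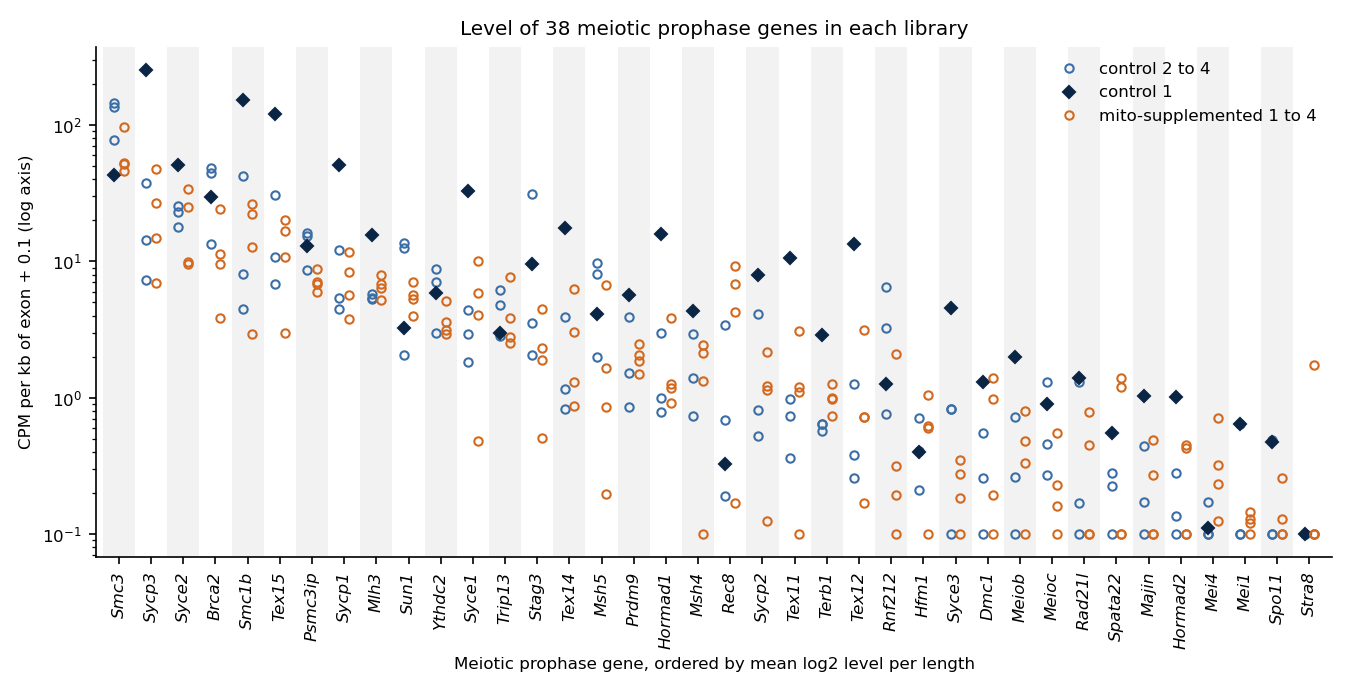
Level of the 38 members in each library, as CPM per kb of exon plus 0.1 on a log axis, ordered by mean log2 level per length; blue marks control (filled diamond, control 1) and orange mito-supplemented libraries. Control 1 has the highest value of 15 of the 27 members tested, and Spo11 is below 1 CPM in all 8 libraries.

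The promoters of the members were described for shared letters, and any link of these letters to the levels was not tested. Of the 20 germline members with enough counts to be tested, 14 had their highest level in control 1, against 22.5% of all genes tested. All 17 oocyte markers tested had theirs in control 1 as well. RefSeq gave promoters for 32 of the 38 members in build GRCm38.p6, each of 300 bases, 250 before and 50 after a start site. For 6 members, Hormad1, Mlh3, Prdm9, Sun1, Syce2 and Syce3, it gave more than 1, and a gene was counted as holding a motif when any of its promoters did, for members and all symbols alike. None was available for Majin, Meiob, Spo11, Tex11, Tex15 and Ythdc2. The first letters searched were GCGGGAA, which read TTCCCGC on the other strand and form the core bound by E2F6, a repressor of germline genes in somatic cells. Next came the E-box CACGTG, its own reverse complement, and then CNCCTCAG, a motif of STRA8 type that reads CTGAGGNG on the other strand. The E2F6 type letters were in 13 of 32 member promoters (40.6%), against 5.29% of all 27025 symbols with a promoter and 6.84% of the 17492 protein-coding ones. The E-box was in 7 members (21.9%), against 8.09% of all symbols and 8.91% of protein-coding ones. Letters of STRA8 type were in 8 members (25.0%), against 9.12% and 9.86%. All 3 motifs were therefore found in a larger share of members than of promoters in general, as a description of letters and not of bound sites.

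Among the 26 germline members with a promoter, 12 held the E2F6 type letters, 7 the E-box and 7 the STRA8 type letters. Of the 6 broad members with a promoter, Brca2 held the E2F6 type letters, Sun1 the STRA8 type letters and 4 held none. Syce2 and Tex12, both of the central element of the synaptonemal complex, held all 3 motifs, Syce2 in the second of its promoters and none in the first, and 15 members held none. In Syce2 and Prdm9 the E2F6 type and STRA8 type letters overlapped. Promoters are printed 5′ to 3′ on the strand of the gene for 6 genes of the synaptonemal complex, axis and cohesin, 5 with a motif and 1 without, with each motif in capitals. For Hormad1 the first of its promoters is shown. They are Sycp3 (chr10:88459337-88459636, plus strand), Sycp1 (chr3:102936051-102936350, minus strand), Smc1b (chr15:85131908-85132207, minus strand), Hormad1 (chr3:95559427-95559726, plus strand), Stag3 (chr5:138280259-138280558, plus strand) and Rec8 (chr14:55617916-55618215, plus strand).
Sycp3: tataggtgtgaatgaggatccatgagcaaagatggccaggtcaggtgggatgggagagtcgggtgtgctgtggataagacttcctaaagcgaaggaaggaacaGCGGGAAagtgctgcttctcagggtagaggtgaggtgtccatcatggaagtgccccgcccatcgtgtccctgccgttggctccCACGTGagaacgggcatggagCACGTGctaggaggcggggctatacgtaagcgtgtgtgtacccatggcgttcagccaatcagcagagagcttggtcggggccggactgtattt
Sycp1: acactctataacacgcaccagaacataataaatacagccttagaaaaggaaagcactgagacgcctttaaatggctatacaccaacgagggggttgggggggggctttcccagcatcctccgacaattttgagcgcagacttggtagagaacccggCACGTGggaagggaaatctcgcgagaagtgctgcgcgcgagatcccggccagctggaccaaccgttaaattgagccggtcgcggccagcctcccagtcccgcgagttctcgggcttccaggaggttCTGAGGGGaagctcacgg
Smc1b: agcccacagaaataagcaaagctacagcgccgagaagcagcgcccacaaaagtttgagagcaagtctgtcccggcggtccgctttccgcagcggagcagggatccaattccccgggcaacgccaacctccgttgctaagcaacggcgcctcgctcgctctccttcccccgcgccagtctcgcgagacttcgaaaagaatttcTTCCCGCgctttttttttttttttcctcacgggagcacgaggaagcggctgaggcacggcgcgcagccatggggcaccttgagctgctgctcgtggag
Hormad1: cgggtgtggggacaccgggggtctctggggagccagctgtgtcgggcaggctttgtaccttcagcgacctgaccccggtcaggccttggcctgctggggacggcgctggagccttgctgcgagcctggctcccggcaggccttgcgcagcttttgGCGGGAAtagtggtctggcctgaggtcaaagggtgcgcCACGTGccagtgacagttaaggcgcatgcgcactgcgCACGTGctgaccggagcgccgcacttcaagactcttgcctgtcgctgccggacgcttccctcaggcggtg
Stag3: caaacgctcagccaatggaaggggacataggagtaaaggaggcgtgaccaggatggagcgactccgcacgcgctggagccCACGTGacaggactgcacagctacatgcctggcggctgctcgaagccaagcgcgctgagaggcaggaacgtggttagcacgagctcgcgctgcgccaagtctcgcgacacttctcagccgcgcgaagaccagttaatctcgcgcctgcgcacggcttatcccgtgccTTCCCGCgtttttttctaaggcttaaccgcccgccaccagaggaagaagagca
Rec8: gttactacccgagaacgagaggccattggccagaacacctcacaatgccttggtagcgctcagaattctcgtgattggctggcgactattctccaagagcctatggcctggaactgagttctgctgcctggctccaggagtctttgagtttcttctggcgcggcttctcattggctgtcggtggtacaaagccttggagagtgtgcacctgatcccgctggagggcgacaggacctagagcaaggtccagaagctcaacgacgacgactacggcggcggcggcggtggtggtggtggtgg

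Counted from the start site, the E2F6 type letters began at -147 in Sycp3, -48 in Smc1b, -95 in Hormad1 and -3 in Stag3. E-boxes began at -64 and -43 in Sycp3, at -94 in Sycp1, at -57 and -20 in Hormad1 and at -170 in Stag3. Sycp1 held the STRA8 type letters at 33 after the start, and Rec8 held none of the 3 motifs in this window.

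**Figure D2:**
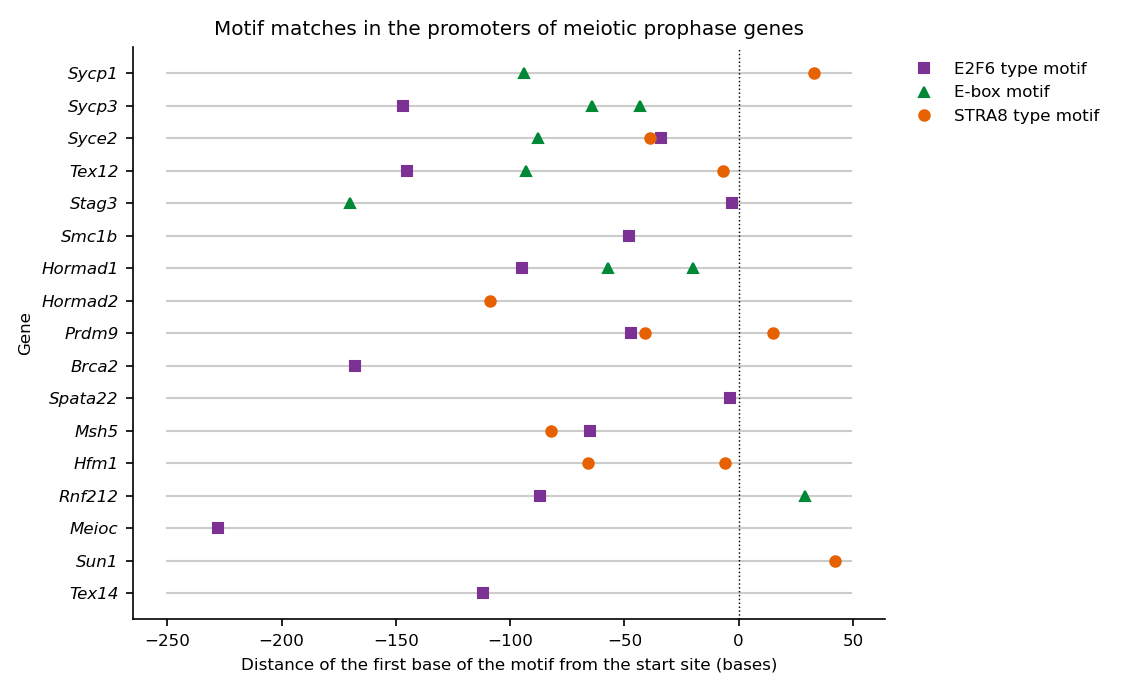
Position of each motif match in the 300-base promoters of the members that held any, as distance in bases of its first base from the start site at 0. The E2F6 type letters were in 13 of 32 member promoters, the E-box in 7 and the STRA8 type letters in 8.

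Transcripts of the synaptonemal complex, the protein zipper between paired chromosomes, ranged from abundant to nearly absent. Levels between genes are compared only per length, as CPM per kilobase (kb) of annotated exon. Sycp3, a filament protein of the lateral elements, was the highest of the 7 genes, with a mean of 51.0 CPM per kb over the 8 libraries. Its levels were 321, 9.04, 17.9 and 47.2 CPM in control and 34.1, 18.7, 59.8 and 8.62 CPM in mito-supplemented libraries. Control 1 was far above the rest and the groups otherwise overlapped. The Sycp3 locus shares exon sequence with Chpt1, so that the counts at the overlap are uncertain. Syce2, of the central element, followed at 24.4 CPM per kb, and was the evenest of them, from 16.2 CPM in mito-supplemented 3 to 86.1 CPM in control 1. Sycp1, the transverse filament whose promoter holds an E-box and the STRA8 type letters, had a mean of 12.7 CPM per kb. Its levels were 175, 15.1, 18.0 and 41.3 CPM in control, and 39.98, 19.3, 28.2 and 12.7 CPM with supplementation. Transcripts for the edge and the middle of the zipper were thus both found in every library.

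The other central element genes were lower. Syce1 had a mean of 7.73 CPM per kb and was under 1 CPM only in mito-supplemented 4, at 0.556 CPM. Tex12, the partner of Syce2, had 13.5 CPM in control 1 and 0.0695 to 3.09 CPM elsewhere, and Syce3 had 2.46 CPM in control 1 and at most 0.4003 CPM elsewhere. Sycp2, the partner of Sycp3 in the lateral element, had 45.2, 4.04, 2.40 and 23.1 CPM in control and 5.92, 11.8, 6.44 and 0.139 CPM in mito-supplemented libraries. Sycp2 was hence well above the mark in 7 libraries and near the floor in 1. Summed over the 7 genes, the synaptonemal complex took 692, 74.6, 82.1 and 149 CPM in control and 138, 72.9, 122 and 80.0 CPM with supplementation. Outside control 1, the sums of the groups overlapped.

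Cohesin rings hold sister chromatids together, and in meiosis Smc1b, Stag3, Rec8 and Rad21l replace mitotic subunits while Smc3 serves both forms. Smc3 was the highest member per length, with a mean of 81.3 CPM per kb. Its levels were 210.0, 704, 665 and 377 CPM in control and 469, 254, 223 and 252 CPM in mito-supplemented libraries. Here control 1 was the lowest library of all, unlike for the germline members. Smc1b, which oocytes need to keep cohesion through the long arrest, averaged 33.8 CPM per kb. It was counted at 615, 17.8, 32.0 and 173 CPM in control against 89.4, 51.0, 106 and 11.5 CPM. Smc1b therefore varied over a wide range inside both groups, with control 1 and control 4 on top.

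Stag3, the meiotic stromalin, had the lowest log2 fold change of the 27 members tested with edgeR. It stood at 44.1, 144, 9.09 and 16.0 CPM in control and at 20.3, 10.3, 8.30 and 1.88 CPM in mito-supplemented libraries, with a mean of 6.84 CPM per kb. The groups overlapped, and its top value came from control 2. Rec8, the meiotic kleisin that closes the ring, ran the other way: 0.492, 1.27, 7.26 and 0.197 CPM in control and 0.146, 14.8, 9.07 and 20.1 CPM with supplementation. Mito-supplemented 2, 3 and 4 lay above every control library, and mito-supplemented 1 had the lowest value. With 3 counts in mito-supplemented 1 and 1 count in control 4, the order of that pair is uncertain. Rad21l, the second meiotic kleisin, reached at most 2.13 CPM, in control 1, and had no count in 3 libraries.

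Set beside their mitotic counterparts per length in bulk follicles, transcripts of the meiotic subunits were mostly the lesser form. The libraries also hold RNA of somatic cells, so these ratios do not give the form that oocytes carry. Smc1b had 152, 4.39, 7.91 and 42.6 CPM per kb in control and 22.1, 12.6, 26.1 and 2.85 CPM per kb in mito-supplemented libraries. Smc1a, its mitotic counterpart, had 42.3, 188, 174 and 57.9 CPM per kb against 103, 55.7, 48.1 and 45.5 CPM per kb. The ratio of Smc1b to Smc1a was thus 3.59 in control 1, 0.736 in control 4 and 0.542 in mito-supplemented 3, and lay between 0.0233 and 0.226 in the other 5 libraries. Stag3 over the sum of Stag1 and Stag2 was at most 0.336, in control 1. Rec8 plus Rad21l over Rad21, the mitotic kleisin, was at most 0.174, in mito-supplemented 4, and as low as 0.00411 in mito-supplemented 1. Only Smc1b in control 1 exceeded the mitotic form, in a library that also held the highest sum of oocyte markers.

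**Figure D3:**
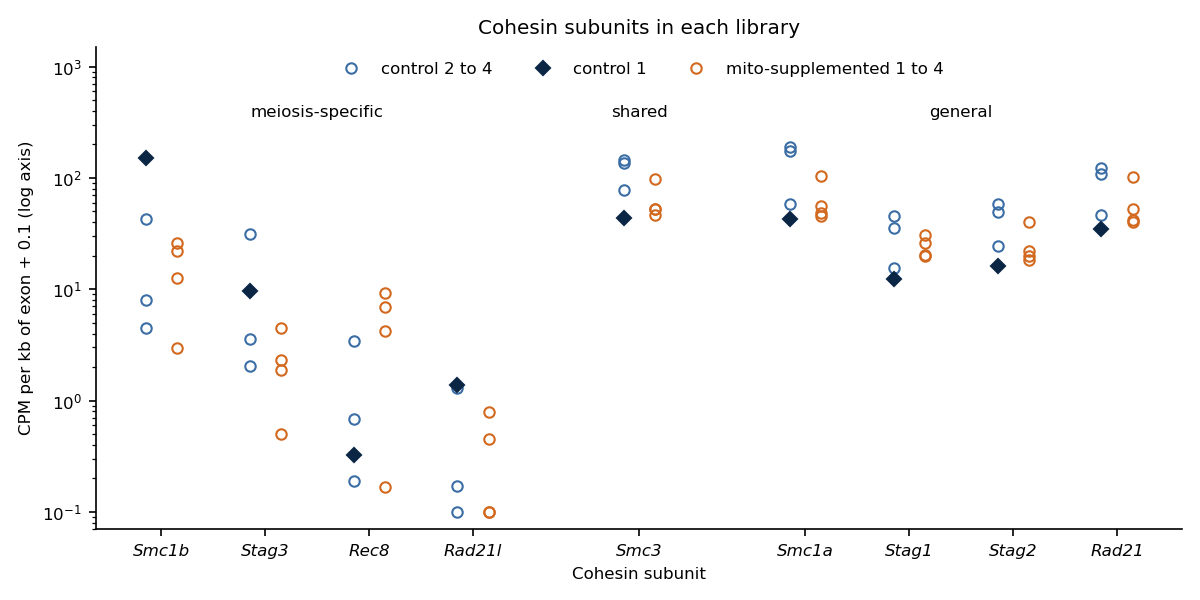
Cohesin subunits in each library, as CPM per kb of exon plus 0.1 on a log axis, with meiosis-specific, shared and general subunits apart; blue marks control (filled diamond, control 1) and orange mito-supplemented libraries. Smc1b exceeded Smc1a only in control 1 (152 against 42.3 CPM per kb).

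The chromosome axis carries HORMA domain proteins that mark unpaired regions, and the ATPase Trip13 strips them once pairing is done. Trip13 was the highest of these 3 genes, with a mean of 4.09 CPM per kb. It measured 9.72, 15.9, 20.5 and 9.28 CPM in control and 12.8, 8.17, 9.12 and 25.9 CPM in mito-supplemented follicles, with wide overlap. Hormad1, which promotes break formation and pairing, had 27.4 CPM in control 1 and 1.19 to 6.45 CPM in the other 7 libraries. Hormad2, a sensor of unpaired chromosomes, had 2.01 CPM in control 1, at most 0.776 CPM elsewhere and no count in 3 libraries. The remover of HORMA proteins was thus the one kept most evenly.

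Break formation, the cutting of DNA that starts recombination, had 1 of 4 genes expressed in every library. That gene was Prdm9, the histone methyltransferase that places recombination hotspots, at 20.9, 5.23, 2.80 and 14.2 CPM in control and 8.83, 7.27, 6.58 and 5.21 CPM in mito-supplemented libraries. The mito-supplemented values of Prdm9 lay inside the control range. Spo11, the enzyme that cuts the DNA, had 16, 0, 12 and 0 counts in control and 1, 4, 0 and 0 counts with supplementation. At most this was 0.686 CPM, and 4 libraries had no count. Mei1, also needed for breaks, reached 2.54 CPM in control 1 and 2.57 CPM in control 4 and stayed at or under 0.208 CPM in the other 6 libraries. Mei4, a partner of the cutting machinery, was highest in mito-supplemented 4 at 2.503 CPM and had no count in control 2 and control 4. Apart from Prdm9, no gene of break formation reached 1 CPM in more than 2 libraries.

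Among genes of meiotic entry, Stra8, the retinoic acid target that switches on the meiotic program, had no count in 7 libraries. The exception was mito-supplemented 4, with 42 counts or 2.92 CPM. In the 4 control libraries the absence of counts allowed levels up to 0.123, 0.238, 0.172 and 0.592 CPM. Meioc, which keeps germ cells in prophase, had 3.69, 0.793, 1.66 and 5.53 CPM in control and 2.09, 0.277, 0.590 and 0 CPM in mito-supplemented libraries. Ythdc2, the RNA helicase that acts with Meioc and is also made in somatic cells, had 41.4, 62.3, 49.98 and 20.9 CPM in control and 36.4, 22.0, 25.0 and 20.5 CPM with supplementation. Of the entry genes, the broadly used helicase alone was expressed in every library.

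Strand exchange, the search of a broken end for the homologous chromosome, kept 3 of 6 genes in every library. Brca2, which loads recombinases in germline and soma, averaged 23.0 CPM per kb. It had 317, 518, 476 and 142 CPM in control and 260.2, 101, 120.0 and 39.8 CPM in mito-supplemented libraries. The groups overlapped through control 4, which lay below mito-supplemented 1 alone. Exons of Brca2 overlap those of Gm42529, so counts there are uncertain. Tex15, a large germ cell protein needed for recombinase loading, was higher per length, at a mean of 27.5 CPM per kb. It had 1169, 103, 64.5 and 296 CPM in control and 160.0, 102, 193 and 27.5 CPM with supplementation. Its log2 fold change was -1.76 (SE 0.90, adjusted p = 0.667 by edgeR's quasi-likelihood test), -0.33 without control 1 and 0.52 with limma-voom. Psmc3ip, a helper of strand exchange, had 16.6, 20.8, 19.7 and 11.1 CPM against 11.3, 8.66, 7.62 and 8.97 CPM. Every control value of Psmc3ip except that of control 4 exceeded every mito-supplemented value. Psmc3ip shares exon sequence with Mlx.

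The recombinase itself was scarce. Dmc1, the meiosis-specific recombinase, had 2.67, 0, 0.343 and 0.987 CPM in control and 0, 0.208, 1.95 and 2.85 CPM in mito-supplemented libraries. Meiob and Spata22, which coat single strands together, reached at most 3.40 CPM and 1.65 CPM, the first in control 1 and the second in mito-supplemented 1. Exons of Spata22 overlap those of Gm49340. The strand exchange genes with high levels were thus loaders and helpers and not the recombinase of meiosis.

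Crossover genes were counted in most libraries but at modest levels. Mlh3, which resolves joint molecules into crossovers and also serves mismatch repair, was the highest of the 6, with a mean of 7.23 CPM per kb. Its values were 87.0, 29.5, 31.4 and 29.0 CPM in control and 28.4, 34.7, 37.6 and 43.9 CPM in mito-supplemented libraries. Apart from control 1, Mlh3 stayed within 28.4 to 43.9 CPM, and the groups overlapped. Msh5 and Msh4 form a clamp on recombination intermediates. Msh5 had 11.7, 28.0, 23.2 and 5.53 CPM in control and 19.2, 4.50, 2.18 and 0.278 CPM with supplementation. For Msh4 the levels were 15.5, 4.76, 2.34 and 10.5 CPM against 7.42, 8.59, 4.49 and 0 CPM. The partners of the clamp did not share their order over the libraries: control 2 led Msh5 and control 1 led Msh4.

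Rnf212, a ligase that picks the sites that become crossovers, had 1.72, 4.68, 9.61 and 0.987 CPM in control and 2.96, 0.139, 0.318 and 0 CPM in mito-supplemented follicles. Mito-supplemented 1 was the only library of its group above 1 CPM. Hfm1, a helicase of the crossover pathway, had 1.56, 3.17, 0.572 and 1.58 CPM in control and 2.67, 4.92, 2.59 and 0 CPM with supplementation. Tex11, an X-linked partner of the synapsis and crossover machinery, had 38.3 CPM in control 1 and 0 to 10.9 CPM in the other libraries. All of Msh4, Hfm1, Tex11 and Rnf212 had no count in mito-supplemented 4.

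The highest gene of telomere attachment per length was Sun1, the nuclear envelope protein that links chromosome ends to the cytoskeleton. Sun1 had 17.6, 76.3, 70.2 and 11.1 CPM in control and 39.4, 28.9, 31.4 and 21.6 CPM in mito-supplemented libraries. The mito-supplemented values lay inside the control range, which was set by control 4 and control 2. Terb1, the germline adaptor, had 8.25, 1.59, 1.37 and 1.58 CPM in control and 2.62, 1.87, 2.59 and 3.41 CPM with supplementation, while its partner Majin reached at most 1.52 CPM, in control 1. Tex14, needed for the bridges that join germ cells in a cyst, had 84.8, 3.57, 5.15 and 18.6 CPM in control and 5.92, 14.3, 30.4 and 3.75 CPM in mito-supplemented libraries. Tex14 thus remained expressed in every library at an age when cysts have largely broken down.

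Between the groups, members leaned lower in mito-supplemented follicles, and none passed the test. Of 38 members, 27 had enough counts to be tested, and 11 did not: Dmc1, Hormad2, Majin, Mei1, Mei4, Rad21l, Spata22, Spo11, Stra8, Syce3 and Tex12. With p-values of edgeR's quasi-likelihood test adjusted over 13873 genes by Benjamini-Hochberg, 0 of 27 members and 0 genes (0.00%) had an adjusted p under 0.05. At an unadjusted p under 0.05 the same test gave 1069 genes (7.71%), 333 lower (2.40%) and 736 higher (5.31%) in mito-supplemented libraries, and 2 of 27 members, Stag3 and Brca2, both lower. Leaving out 1 library at a time, this threshold was met by 0 to 7 members and 572 to 2003 genes, the most in both without mito-supplemented 1. Other tools called 58 genes (0.418%, edgeR's likelihood ratio test), 141 genes (1.02%, DESeq2) and 2913 genes (21.0%, limma-voom with sample quality weights). Members called numbered 0 by the likelihood ratio test, 0 by DESeq2 and 7 by limma-voom. Those 7 were Brca2, Msh5, Psmc3ip, Rnf212, Smc3, Syce2 and Ythdc2, all lower with supplementation. The tools thus differed in how many members they called.

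The median log2 fold change (mito-supplemented over control) of the 27 members was -1.05, with 24 below 0, beside a median of -0.10 over all genes tested, of which 55.1% were below 0. For the 20 germline members the median was -1.30 and 18 were lower, and for the 7 broad members it was -0.71 and 6 were lower. This lean rested largely on control 1. Without that library the median of the members was -0.13, with 16 of 28 lower, and that of the germline members was 0.04, with 10 of 21 lower. The broad members kept a median of -0.77, with 6 of 7 lower. With limma-voom the median was 0.27 over all members tested, 0.53 over germline members and -1.04 over broad members. The germline lean was therefore lost without control 1 and turned with limma-voom, while the broad lean kept its direction in both settings. The broad members summed highest in control 2 and control 3, and their median without either of these was not taken. Without control 2, Smc3 moved from -0.71 to -0.48, Ythdc2 from -0.75 to -0.53 and Sun1 from -0.53 to -0.12. With no filter on low counts, 31 of 38 members were lower, with a median of -0.98. Scaling by library size alone moved the median of all genes to 0.17, and the members then had a median of -1.14, with -1.29 for germline and -0.38 for broad members.

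Stag3 had a log2 fold change of -2.38 (SE 0.92, unadjusted p = 0.0270, adjusted p = 0.626 by edgeR's quasi-likelihood test) and was lower in each mito-supplemented library than in control 1 and control 2. Without control 2, the log2 fold change of Stag3 was -1.18. Brca2 had -1.48 (SE 0.58, unadjusted p = 0.0289, adjusted p = 0.626), and -1.52 without control 1. Rnf212 (-2.30, SE 1.39) and Meioc (-1.95, SE 1.25) were the next lowest of the members tested. Their adjusted p by edgeR's quasi-likelihood test were 0.694 and 0.711, and they came to -4.67 and -3.23 without mito-supplemented 1. Of the members tested by edgeR's quasi-likelihood test, Rec8 was the highest (2.23, SE 1.30, adjusted p = 0.683). Next by the same test came Hfm1 (0.56, SE 1.199, adjusted p = 0.892) and Trip13 (0.01, SE 0.52, adjusted p = 0.995). Rec8 came to 4.01 without control 3 and Hfm1 to 0.04 without mito-supplemented 2. Trip13 came to -0.10 without control 1, -0.12 without control 4 and -0.44 without mito-supplemented 4. In none of these was the difference larger than the spread between libraries by the adjusted test.

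The remaining genes that led a role per length also had adjusted p-values above 0.05 by edgeR's quasi-likelihood test. Sycp3 had a log2 fold change of -1.70 (SE 1.03, adjusted p = 0.695), which became 0.33 without control 1. Tex14 had -1.05 (SE 1.00, adjusted p = 0.782), and 0.62 without that library. Mlh3 had -0.29 (SE 0.44, adjusted p = 0.851), and 0.29 without it. Each of these 3 directions was thus set by control 1. Smc3 had -0.71 (SE 0.44, adjusted p = 0.700), Ythdc2 -0.75 (SE 0.41, adjusted p = 0.679), Sun1 -0.53 (SE 0.60, adjusted p = 0.807) and Prdm9 -0.63 (SE 0.65, adjusted p = 0.796). Smc3, Ythdc2 and Sun1 kept their direction without control 1, at -0.94, -0.75 and -0.77, while Prdm9 came to -0.05. The value of Sun1 was nearer 0 without control 2 (-0.12) and without control 3 (-0.21). Over all 27 members, adjusted p-values by edgeR's quasi-likelihood test ran from 0.626 to 0.995, beside a lowest value of 0.418 over all genes.

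**Figure D4:**
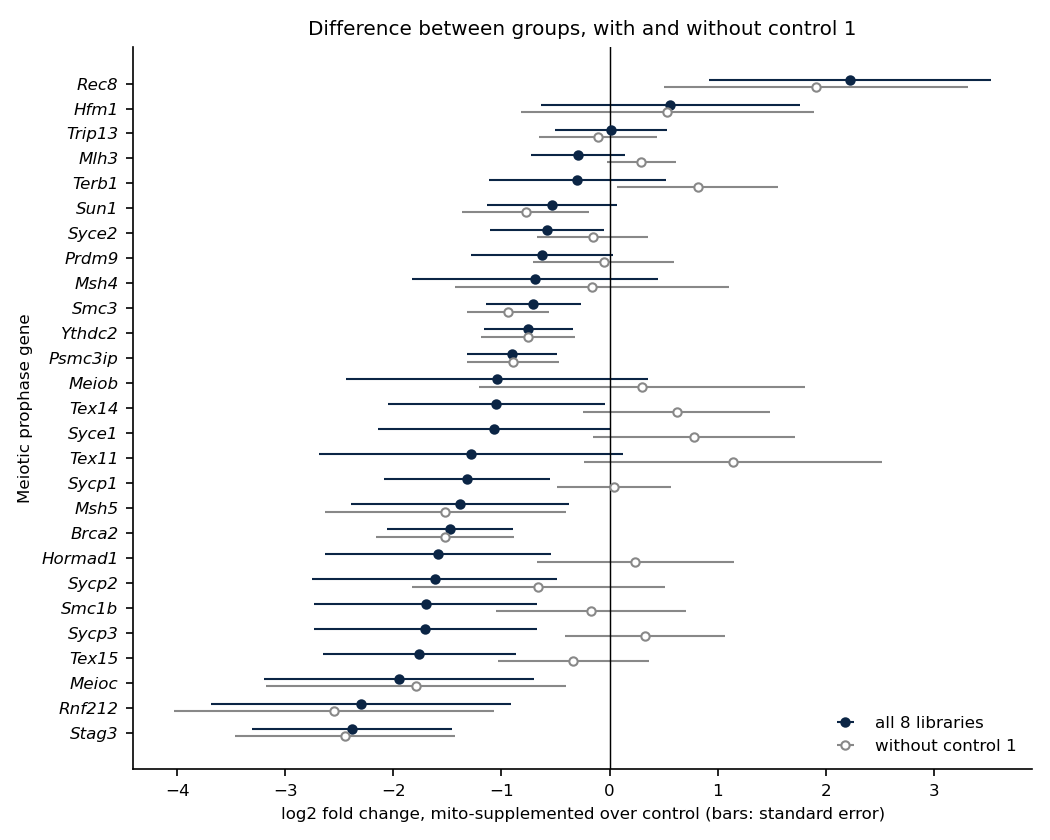
Log2 fold change (mito-supplemented over control) of the 27 members tested by the quasi-likelihood fit of edgeR, with all 8 libraries (filled) and without control 1 (open). Bars are standard errors derived from the F statistic of the test. With all libraries 24 of 27 lie below 0, and without control 1 16 do.

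In no member did the 4 libraries of one group all lie above the 4 of the other, while this held for 5.03% of all genes tested (2.03% lower with supplementation). Without mito-supplemented 1, 7 of 30 members separated in this way, beside 13.5% of genes: Brca2, Meioc, Msh5, Psmc3ip and Rnf212 were lower and Mei4 and Rec8 higher with supplementation. Without control 4, Brca2, Psmc3ip and Ythdc2 separated, all lower, beside 13.7% of genes. Without control 1, Terb1 alone of 28 members separated, higher with supplementation, beside 8.88% of genes, and without control 3 the same held for Mei4 alone of 32, beside 7.43% of genes. The separation of members thus turned on single libraries.

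The sums of germline members and of oocyte markers shared their highest and lowest libraries, but single members did not all follow. The germline members summed to 2749, 396, 248 and 707 CPM in control and 481, 301, 500.2 and 163 CPM in mito-supplemented libraries, a mean of 1025 ± 1165 CPM (SD, n = 4) against 361 ± 159.7 CPM. Without control 1 the control mean was 450.1 ± 234 CPM (SD, n = 3). Control 1 was the highest and mito-supplemented 4 the lowest library for this sum, as for the oocyte markers. The largest parts of the sum in control 1 were Tex15 (1169 CPM), Smc1b (615 CPM) and Sycp3 (321 CPM). Of the 20 germline members tested, 14 were highest in control 1. Stag3 and Msh5 were highest in control 2, Rnf212 in control 3 and Meioc in control 4. Hfm1 was highest in mito-supplemented 2, and Rec8 in mito-supplemented 4. Per 100 CPM of oocyte markers, the germline members had 60.4, 170.0, 110.0 and 80.6 CPM in control and 130.0, 111, 49.1 and 108 CPM with supplementation. The mean of this ratio was 105 ± 47.7 in control and 99.4 ± 35.0 in mito-supplemented libraries (SD, n = 4 each). From lowest to highest library, the germline sum spanned 16.8-fold, the oocyte markers 30.1-fold and their ratio 3.47-fold. The groups thus overlapped in this ratio, with a difference between means smaller than the SD of either group.

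Of 17 oocyte markers tested, all 17 were lower in mito-supplemented follicles and all were highest in control 1, with a median log2 fold change of -1.65 and 1 at an unadjusted p under 0.05. That gene was Kit, the receptor of the primordial oocyte, at -2.06, and -0.54 without control 1. Without control 1 the median of these markers was 0.12, with 7 of 17 lower, and with limma-voom it was 1.18. Their lean to lower levels was thus lost in the same settings as that of the germline members. No tool called any of the 17. Dppa3, Nlrp5 and Padi6 were the most abundant oocyte markers per length, at 106, 74.5 and 39.8 CPM per kb. Divided by Ddx4 alone, the germline members came to 38.5, 46.7, 20.6 and 61.7 in control and 19.99, 30.6, 25.0 and 20.8 in mito-supplemented libraries. The mean of this second ratio was 41.9 ± 17.1 in control and 24.1 ± 4.86 in mito-supplemented libraries (SD, n = 4 each), and 43.0 ± 20.8 in control without control 1 (SD, n = 3). The ratio to Ddx4 was thus higher on average in control, with control 3 inside the mito-supplemented range, while the ratio to all oocyte markers was similar in both groups, and neither difference was tested. The part of oocyte content in the levels of the members was not tested.

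**Figure D5:**
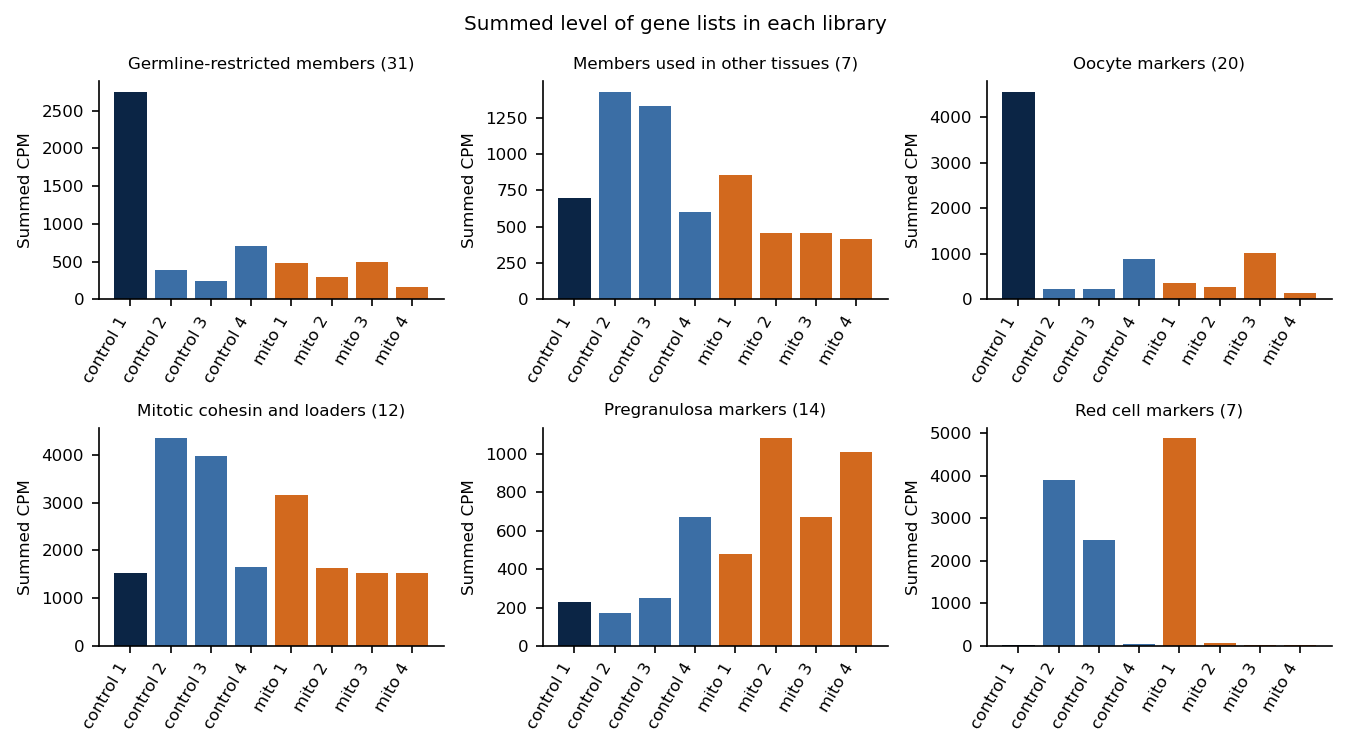
Summed CPM of germline members, broad members, oocyte markers, mitotic cohesin, pregranulosa markers and red cell markers in each library, with control bars in blue (control 1 darkest) and mito-supplemented bars in orange. Control 1 is highest for germline members (2749 CPM) and oocyte markers (4549 CPM), and control 2 for broad members (1426 CPM).

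The broad members followed other libraries. They summed to 699, 1426, 1332 and 601 CPM in control and 858, 458, 454 and 413 CPM with supplementation, highest in control 2, control 3 and mito-supplemented 1. Red cell markers were high in the same 3 libraries, at 23.8, 3906, 2495 and 50.7 CPM in control and 4877, 79.7, 28.9 and 28.2 CPM in mito-supplemented libraries. Slc4a1, the anion exchanger of red cells, led that list per length at 201 CPM per kb, and the heme enzyme Alas2 had 88.6 CPM per kb, while Hba-a1 had no count in 7 libraries. Among globin genes, Hbb-b1, for which no length was available, had up to 342 CPM, and Hba-a2 and Hbb-bs had at most 8.40 and 4.66 CPM. All 4 red cell markers tested were lower with supplementation, none at an unadjusted p under 0.05, with a median of -0.24 that became 0.78 without control 2 and -4.89 without mito-supplemented 1, and was also above 0 without mito-supplemented 2, 3 or 4. Limma-voom called 3 of these 4, all lower, beside 21.0% of all genes. Immune markers summed to 16.3, 139, 123 and 22.3 CPM in control and 773, 12.6, 19.5 and 8.69 CPM with supplementation. Lyz2, Tyrobp and Fcer1g led them, C1qb had no count in any library, and 6 of 6 tested were higher, none at an unadjusted p under 0.05, with a median of 0.90 that became -1.97 without mito-supplemented 1. Limma-voom called Lyz2 alone, as lower. The part of blood cell RNA in the broad members was not tested.

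Mitotic cohesin and its loaders were highest in the same 3 libraries as the broad members. The 12 genes summed to 1518, 4344, 3965 and 1647 CPM in control and 3165, 1623, 1529.8 and 1527 CPM in mito-supplemented libraries. All 12 were lower with supplementation, none at an unadjusted p under 0.05, with a median of -0.49. With 1 library left out, that median ran from -0.27 without control 2, with 10 of 12 lower, to -0.83 without mito-supplemented 1. It was -0.19 with scaling by library size alone, with 9 of 12 lower, and -1.14 with limma-voom. Limma-voom called 8 of the 12, all lower, beside 21.0% of all genes. Smc1a, Rad21 and the release factor Wapl led per length, at 89.3, 68.7 and 57.4 CPM per kb. Smc3, the member shared with these rings, had its 3 highest values in the same control 2, control 3 and mito-supplemented 1.

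Further genes of meiotic prophase outside the module, 28 of 34 found in the counts, leaned the same way as the members when all libraries were fitted with edgeR. Of 21 tested, 19 were lower with supplementation, with a median of -1.10 (12 of 21 and -0.24 without control 1). With limma-voom 13 of 21 were lower and their median was -0.51, below 0 where that of the members was 0.27. Rad51c, a gene of break repair, had 9.31, 13.0, 12.01 and 11.3 CPM in control and 3.25, 3.88, 5.76 and 1.88 CPM in mito-supplemented libraries, with no overlap between the groups. Rad51c alone of the 21 tested separated so, beside 5.03% of all genes tested. Its log2 fold change was -1.62 (SE 0.53, unadjusted p = 0.0122, adjusted p = 0.626 by edgeR's quasi-likelihood test). Exo1, the exonuclease that trims broken ends, had -1.10 (SE 0.42, unadjusted p = 0.0248, adjusted p = 0.626). By that test the unadjusted p of Exo1 was above 0.05 without control 1, control 3, mito-supplemented 2 or mito-supplemented 3. The most abundant of the list per length were Sycp2l, an oocyte relative of Sycp2, at 20.8 CPM per kb, Mael, which guards against transposons, at 16.9 CPM per kb, and the helicase Blm at 16.9 CPM per kb. Sycp2l had 239 CPM in control 1 and 0.695 CPM in mito-supplemented 4, the same extremes as the sum of the germline members. Limma-voom called 6 of the 21, all lower, Rad51c and Exo1 among them, beside 21.0% of all genes in either direction. The other tools called none.

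Of the checkpoint that watches meiotic breaks, 13 of 14 genes were tested and 12 were lower, with a median of -0.99. Mdc1, an adaptor at marked chromatin, had -1.14 (SE 0.36, unadjusted p = 0.00933, adjusted p = 0.599), and Hus1, of the checkpoint clamp, had -0.86 (SE 0.39, unadjusted p = 0.0487, adjusted p = 0.645). Hus1 was at 32.2, 32.3, 26.6 and 30.0 CPM in control and 21.8, 19.1, 17.0 and 8.55 CPM with supplementation, without overlap. Hus1 alone of the 13 tested separated so, beside 5.03% of all genes tested. With 1 library left out, its unadjusted p by edgeR's quasi-likelihood test stayed under 0.05 only without mito-supplemented 1 (0.0465). Without mito-supplemented 4 it was 0.105. H2ax, Mdc1 and Topbp1 were the most abundant per length, at 97.1, 32.6 and 32.5 CPM per kb. Limma-voom called 7 of the 13, all lower, beside 21.0% of all genes, with Mdc1 among them and Hus1 not. The other tools called none.

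Genes of dictyate arrest and its release leaned lower in 15 of 17 tested, with a median of -1.03, and of -1.83 without mito-supplemented 1. They summed to 494, 1213, 921 and 364 CPM in control and 859, 263, 266 and 271 CPM with supplementation. The sum was highest in control 2, control 3 and mito-supplemented 1, the libraries high in red cell markers. The part of blood cell RNA in these genes was not tested. Gpr3, the receptor that sustains arrest, had 33.9, 1.19, 1.49 and 3.16 CPM in control and 1.94, 2.42, 1.63 and 0.348 CPM in mito-supplemented libraries (log2 fold change -2.65, unadjusted p = 0.0470). Its difference was carried by control 1, without which the log2 fold change was -0.25 (unadjusted p = 0.791). Its relative Gpr12 had no count in any library. Npr2, a guanylyl cyclase made by the cells around the oocyte, was higher at 1.54 (unadjusted p = 0.0350), and the adenylyl cyclase Adcy3 at 1.22 (unadjusted p = 0.0412). With 1 library left out, Adcy3 stayed under an unadjusted 0.05 by edgeR's quasi-likelihood test only without mito-supplemented 1. Npr2 did so only without control 4, mito-supplemented 1 or mito-supplemented 3, and had 0.112 without mito-supplemented 4. Ccnb2, Cdc25b and Fbxo5, regulators of entry into division, led per length at 86.2, 22.9 and 19.8 CPM per kb. None of the 17 had an adjusted p under 0.05 by edgeR's quasi-likelihood test, its likelihood ratio test or DESeq2. Limma-voom called 9 of them, beside 21.0% of all genes: 8 lower and 1, Npr2, higher (1.78, adjusted p = 0.0158), but neither Gpr3 nor Adcy3.

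Markers of somatic ovarian cells were mostly higher with supplementation. Pregranulosa markers summed to 231, 172, 252 and 674 CPM in control and 480.2, 1082, 670.0 and 1010.2 CPM with supplementation, and 13 of 14 were higher, with a median of 1.39. At an unadjusted p under 0.05, 7 were higher: Lgr5 at 2.44, Irx5 at 2.43, Rspo1 at 1.99, Amhr2 at 1.94, Irx3 at 1.72, Krt8 at 1.57 and Nr5a1 at 1.22. Only Lgr5, Amhr2 and Rspo1 of these stayed under 0.05 without control 3, and likewise without mito-supplemented 2. Rspo1, Krt18 and Gata4 led this list per length, and mito-supplemented 4, the library lowest in germline members, held the second highest sum. Surface epithelium markers summed to 88.6, 32.1, 22.4 and 273 CPM in control and 272, 698, 286 and 601 CPM with supplementation, with 9 of 9 higher and a median of 1.90, and of 3.38 without control 4. Upk1b (5.07), Gpm6a (4.37), Upk3b (2.02), Krt7 (2.02) and Muc16 (1.89) had an unadjusted p under 0.05, and Upk3b and Krt19 led per length. Without mito-supplemented 2, only Upk1b and Gpm6a of these 5 stayed under 0.05. By edgeR's quasi-likelihood test no marker of either list had an adjusted p under 0.05. Limma-voom called 12 of 14 pregranulosa and 8 of 9 surface epithelium markers, all higher, beside 21.0% of all genes. DESeq2 called Lgr5, Amhr2, Gpm6a and Upk1b, and the likelihood ratio test called Gpm6a and Upk1b.

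Stroma markers summed to 336, 456, 652 and 2208 CPM in control and 953, 989, 2504 and 2216 CPM with supplementation, led by Dcn, Col3a1 and Col1a1, with 9 of 9 higher and a median of 0.81. Without control 4 the stroma median was 1.76, and without mito-supplemented 4 it was 0.46, with 7 of 9 higher. Endothelial markers summed to 27.2, 28.9, 46.3 and 225 CPM against 97.7, 228, 187 and 204 CPM, led by Kdr, Cdh5 and Pecam1. Of these 8 markers 6 were higher, with a median of 1.10 that became 0.43 without mito-supplemented 3, and Esam (3.33) had an unadjusted p under 0.05. Smooth muscle markers summed to 40.2, 45.4, 76.9 and 303 CPM against 74.8, 114, 128 and 485 CPM, led by Myl9, Acta2 and Myh11, with 6 of 6 higher and a median of 0.90. That median became -0.04, with 3 of 6 higher, without mito-supplemented 4, and 2.02 without control 4. Limma-voom called 3 of 9 stroma markers and 2 of 8 endothelial markers, Esam and Kdr, all higher, and none of the smooth muscle markers. Of all genes it called 21.0% in either direction. DESeq2 and the likelihood ratio test called only Esam in these 3 lists, and the quasi-likelihood test called none. With all libraries the germline members leaned the other way (-1.30), but without control 1 their median was 0.04 beside 1.33 for pregranulosa markers, and with limma-voom 0.53 beside 2.12. The part of cell composition in the members' levels was not tested.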

How the data were processed

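RNA from primordial follicles of 4 control and 4 mito-supplemented samples was sequenced, and the authors deposited raw counts per gene symbol. Per the submitters' notes, the authors trimmed reads with Trim Galore 0.4.4, mapped them with STAR 2.5.3a, counted them with featureCounts and used edgeR 3.20.9. The annotation release and strand setting are not given in the sources used here. Every column of values was used. In R 4.3.3, edgeR 4.0.16 filtered genes with filterByExpr, which left 13873, scaled by TMM and compared mito-supplemented with control libraries by its quasi-likelihood test, with Benjamini-Hochberg adjustment over all genes tested. Alternatives were the likelihood ratio test, DESeq2 1.42.0, limma 3.58.1 with voom and sample quality weights, other scalings and filters, a replicate block, counts summed over libraries whose label codes begin alike, and each library left out. Total counts ran from 10370045 to 19760763 per library. The standard error (SE) of an edgeR log2 fold change was its absolute value divided by the square root of the quasi-likelihood F statistic. The scripts were tested on simulated data. Exon lengths came from the GENCODE annotation of GRCm38 and promoters from RefSeq.

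The rule for members reads symbols and no measured value, but members and lists were chosen with earlier results of these data known. Values per library were given by rule for the highest member of each role per length, the 3 highest and 3 lowest log2 fold changes, and members with an unadjusted p under 0.05 or separated groups. Of the other lists, the rule named the 3 highest genes per length and those with an unadjusted p under 0.05. The script first took the highest member of each role by mean log2 CPM per kb, the order of the levels plot. By mean CPM per kb, as the rule was written, strand exchange gave Tex15 in place of Brca2, so Tex15 was added late and both were kept. Values of further members were added after they were seen.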

Additional observations from a re-analysis of the deposited data

Results flagged for a closer look

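In 62 groups of 4 libraries, 1 library was compared with the other 3 by the size of the gap to its nearest neighbour, and 5 groups held a library set far apart. Chance gives about 1 in 20 groups, or 3.1 of 62. On the log2 CPM scale, Mlh3 was at 6.45 in control 1 against 4.86 to 4.98 in the other control libraries. Terb1 was at 3.06 in control 1 against 0.58 to 0.77. Msh4 and Hfm1 had 0 counts in mito-supplemented 4, where -3.03 is a floor set by the prior count and not a measured level, against 2.21 to 3.12 and 1.44 to 2.33 in the rest of that group. With 3 counts there in place of 0, or 0.209 CPM, the gap over the range would be 0.806 for Msh4 and 0.772 for Hfm1, under the limit for a library set apart, so these 2 groups depend on the floor. The summed CPM of the broad members, also as log2, was 9.74 in mito-supplemented 1 against 8.69 to 8.84 in the rest of that group.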

How the results depend on the processing

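The median log2 fold change of the members (-1.05) was 0.27 with limma-voom and ran from -1.17 to -0.13 when 1 library was left out. The count of genes called, 0 with edgeR's quasi-likelihood test (1069 at an unadjusted p under 0.05), came to 58 by likelihood ratio, 141 in DESeq2 and 2913 in limma-voom, and 0 to 0 when 1 library was left out. Members called were 0 in every setting run except limma-voom, with 7. Members whose groups did not overlap numbered 0 (5.03% of genes), 1 with DESeq2 type (RLE) size factors (5.08% of genes), and 0 to 7 when 1 library was left out (5.72% to 13.7% of genes). Members expressed in every library numbered 17, and 14 to 21 over other thresholds, scales and left-out libraries, while 23 were expressed in at least 3 of 4 libraries of each group. The causes of these moves were not tested.

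With limma-voom, signs turned for 15 of the 27 members tested, 6 of them among the 15 picked for values by rule, and the cause was not tested. Of those 6, Sycp3 was 0.89, Prdm9 0.80, Mlh3 0.16, Tex14 1.61, Tex15 0.52 and Trip13 -0.88. Trip13, at 0.01, was also -0.0029 with DESeq2 and -0.0013 with RLE size factors. Ranges over left-out libraries were -2.23 to 0.33 for Sycp3, -0.44 to 0.26 for Trip13, -0.44 to 0.29 for Mlh3, -1.77 to 0.62 for Tex14 and -2.11 to -0.33 for Tex15. With a replicate block, Trip13 was -0.083, the members' median was -0.72 and 0 members were called. Replicate numbers did not pair the samples: correlations of deviations between the groups were -0.24, -0.19, -0.33 and 0.22. Counts summed by label prefix, which leaves 2 sums per group with mito-supplemented 4 alone in 1 of them, gave a median of -1.59.

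Depth limits the lowest members, since 0 counts allowed up to 0.592 CPM in control 4, and 11 members were not tested for low counts.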
